A study of Mus musculus with 48 samples.

Results

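The complement receptor gene Cr2 and the sequence upstream of it were examined as a stretch of mouse chromosome 1 (build mm10, 195139473 to 195335828) in DNA captured from the intestine. The stretch held 19 of the 95882 regions in which captured DNA was counted. It was selected on measured values, since its regions lay together among those with more captured DNA in GermFree than in ConvR mice, so the difference between these mice is described below without a test. Regions are numbered 1 to 19 in the order of their coordinates. Cr2 lies on the minus strand, so region 1 is nearest to the end of the gene, regions 1 to 4 overlap the gene, region 4 covers its start, and regions 5 to 19 lie upstream.

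The mouse gene Cr2 encodes, by alternative splicing, the complement receptors CD21 and CD35, which bind fragments of the complement protein C3 that are fixed to antigens. On B cells CD21 acts in a complex with other membrane proteins as a coreceptor of the B cell receptor, and on follicular dendritic cells both receptors hold antigen for display in lymphoid follicles, those of the gut among them. DNA methylation in mammals is found mostly at CpG, and starts of genes with many CpG are commonly unmethylated.

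Captured DNA was measured in 4 sections of the intestine (duodenum, jejunum, ileum, colon) of 7 GermFree mice and of 5 ConvR mice, which the series describes as conventionalized, giving 48 libraries. GermFree mice are reared without microbes, and conventionalized mice are those given a microbiota. The strain, age and sex of the mice, and how and when the ConvR mice were colonized, were not given in the sources used here, and the cells of each section were not separated. Replicates were separate mice, and a code in the sample titles is shared by 1 mouse of each model for 5 codes.

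A fragment is captured by its methylated CpG, so the amount of captured DNA depends on methylation and on the number of genome copies of a sequence, and the 2 cannot be told apart here. It measures neither expression nor the kinds of cells in a sample. Values are CPM, the counts of a region relative to the scaled size of its library. Library totals ran from 1007560 to 3033782 counts, with a median of 2142032 in GermFree and 2122529 in ConvR mice, and a library held 448 to 2243 counts in the stretch. The median count of a region per library ran from 14.5 in region 6 to 178.5 in region 15, and the lowest single count was 3, in region 18. ConvR mice 1 and 3 stood apart from the other ConvR mice elsewhere in the genome in earlier results of these data, so results are given also without them.

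The sequence before the start of Cr2 is shown because region 4 covers it, and that of Cd46, the nearest gene outside the stretch with a region of its own, for comparison. Both are the 250 bases before the start that the RefSeq promoter table gives (GRCm38.p6, minus strand, 5′ to 3′), with every CpG in capitals, at chr1:195176720-195176969 for Cr2 and chr1:195092249-195092498 for Cd46.
Cr2: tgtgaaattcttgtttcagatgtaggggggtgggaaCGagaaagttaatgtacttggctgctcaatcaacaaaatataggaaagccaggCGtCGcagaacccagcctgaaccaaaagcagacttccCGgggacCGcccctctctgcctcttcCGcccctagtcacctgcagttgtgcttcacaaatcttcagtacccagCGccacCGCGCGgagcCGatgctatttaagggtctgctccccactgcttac
Cd46: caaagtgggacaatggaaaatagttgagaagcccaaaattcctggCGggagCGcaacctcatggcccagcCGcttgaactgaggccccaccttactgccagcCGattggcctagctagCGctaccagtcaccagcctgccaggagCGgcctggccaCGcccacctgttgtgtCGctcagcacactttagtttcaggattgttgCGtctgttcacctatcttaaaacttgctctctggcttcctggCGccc

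The Cr2 sequence held 11 CpG and was 53.6% G and C, and the annotated outer end of the gene lies within it. The Cd46 sequence held 10 CpG, was 56.8% G and C, and overlapped no region, and its window lies inside the annotated bounds of the gene. Among 32851 such windows in the RefSeq table the median was 6 CpG, and 35.6% held at least as many as Cr2. Of all windows, here with the 50 bases after the start, 8.57% overlapped a region, and of the 682 with as many CpG as Cr2 7.04% did. The start of Cr2 was thus among the minority of starts covered by a region, although region 4 is 14705 bp wide and reaches far into the gene, so its counts do not show how much of the captured DNA came from the start itself.

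The 19 regions covered 110411 bp, 56.2% of the stretch. They were wide: the median was 4402 bp against 1208 bp for all regions, and 7.03% of all regions were at least as wide as that median. Of the members 8 were 5 kb or wider, against 5.22% of all regions, the widest being region 15 with 17884 bp and the narrowest region 13 with 1034 bp. Wide regions gather more counts, which lowers their counting error. Region 7 overlaps the pseudogene Gm29726, region 15 overlaps Vmn2r-ps1, a pseudogene of the vomeronasal receptors, and the other upstream regions overlap no annotated gene.

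Captured DNA was spread over the stretch at a nearly even density, with 1 exception. The median member held 5.37 CPM per kb, below the median of 6.23 over all regions, and 31.6% of all regions had a lower density. Apart from region 10, the means ran from 3.52 to 7.16 CPM per kb in ConvR mice and from 5.58 to 9.43 in GermFree mice. Region 10, 1500 bp wide and centred 64.7 kb upstream of the start, held 37.3 CPM per kb in ConvR and 36.5 in GermFree mice. It stood out also by the authors' score for the region, 12085 against a median of 9 over the members and 10 over all regions, which only 0.0198% of all regions reached.

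**Figure D1:**
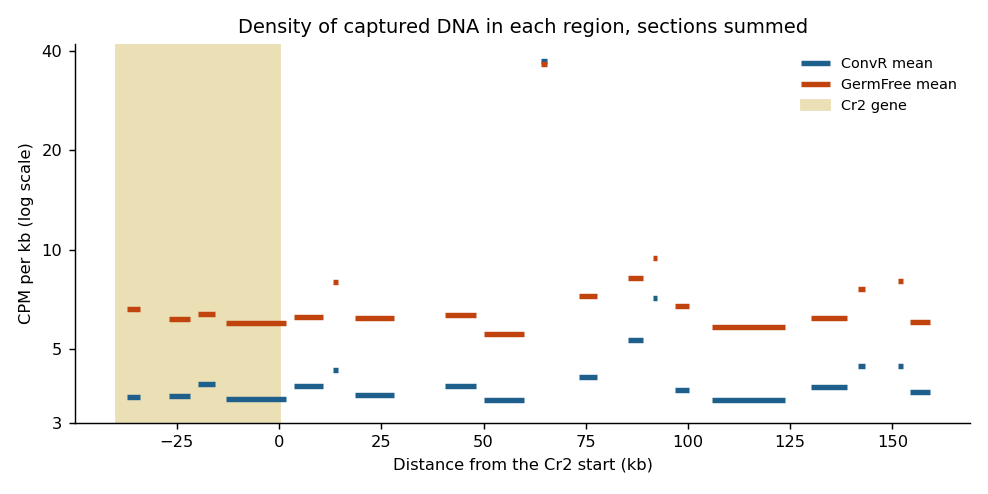
Mean captured DNA per kb (log scale) of each of the 19 regions against distance from the start of Cr2, with a bar as long as the region for ConvR (n = 5) and GermFree mice (n = 7), sections summed, and the gene shaded. GermFree bars lie above ConvR bars in 18 regions, and both bars coincide near 37 CPM per kb in region 10.

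Summed over its regions and over the 4 sections, the stretch gave 502, 514, 381, 521 and 429 CPM in ConvR mice 1 to 5, and in the 7 GermFree mice a lowest value of 530.1, a median of 778 and a highest of 986 CPM. The groups did not overlap, by a narrow margin between GermFree mouse 3, the lowest, and ConvR mouse 4, the highest. The mean of the GermFree mice was 742 ± 141 CPM (SD, n = 7) and that of the ConvR mice 469.5 ± 61.6 (SD, n = 5), a ratio of 1.58. On the log2 scale this ratio of means was 0.66, and 0.60 without ConvR mice 1 and 3.

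Of the 19 regions, 17 had an adjusted p under 0.05 and were higher in GermFree mice (edgeR's quasi-likelihood test with Benjamini-Hochberg adjustment over all regions), where 0.431% of all 95882 regions did; since this contrast chose the stretch, nothing is read from the count. Their log2 differences lay between 0.61 (region 12) and 0.91 (region 6), with SE from 0.08 to 0.16, and the median over the 19 members was 0.73. In 7 of the 17 the groups did not overlap, and in the other 10 all but 1 of the GermFree mice exceeded every ConvR mouse. The share of all regions without overlap is not given here, so nothing is read from these counts either. Without ConvR mice 1 and 3 the count was again 17.

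Within the gene, region 1 (195139473 to 195142713, at the end of Cr2) gave 13.3, 12.3, 8.61, 12.5 and 11.6 CPM in ConvR mice 1 to 5 and a lowest, median and highest value of 12.97, 22.01 and 29.0 CPM in GermFree mice. The groups overlapped only through GermFree mouse 3, just below ConvR mouse 1, and the log2 difference was 0.89 (SE 0.12). Region 2 (195149833 to 195155000) gave 17.4, 21.1, 16.0, 22.4 and 16.8 CPM against 24.6, 32.2 and 44.0 CPM, without overlap, a log2 difference of 0.76 (SE 0.10). Region 3 (195156822 to 195161008) gave 19.3, 16.7, 12.3, 19.6 and 14.3 CPM against 19.7, 26.7 and 36.7 CPM. There the highest ConvR and the lowest GermFree mouse nearly met, and the log2 difference was 0.72 (SE 0.10).

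Region 4 (195163667 to 195178371), which covers the start of Cr2 and the promoter sequence shown above, gave 52.8, 57.8, 38.4, 62.5 and 48.3 CPM in ConvR mice 1 to 5. The GermFree mice gave a lowest value of 60.0, a median of 92.3 and a highest of 124 CPM. Only GermFree mouse 3 lay within the ConvR range, below ConvR mouse 4, and the log2 difference was 0.76 (SE 0.11). Over regions 1 to 4, start and body of the gene, the log2 differences ran from 0.72 to 0.89, and whether they differ from each other was not tested.

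Upstream, region 15 (195282566 to 195300449) had the highest mean. It gave 70.2, 70.0, 50.4, 69.4 and 54.6 CPM in ConvR mice 1 to 5 and a lowest, median and highest value of 74.0, 109 and 139.6 CPM in GermFree mice, without overlap (log2 0.73, SE 0.10). Within the stretch, which was chosen by this difference, the difference did not fade with distance from the gene. Region 5, centred 7.29 kb upstream of the start, had a log2 difference of 0.69 (SE 0.10), and region 19, centred 157 kb upstream, of 0.68 (SE 0.10). Region 18, beside it, had 0.83 (SE 0.14).

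Regions 10 and 13, singled out after their values were seen, were the members that did not pass. Region 10 (195240677 to 195242176) gave 66.8, 59.5, 50.1, 54.2 and 49.2 CPM in ConvR mice 1 to 5 and 49.2, 56.5 and 58.0 CPM as the lowest, median and highest of the GermFree mice. All 7 GermFree values lay inside the ConvR range, and the log2 difference was -0.03 (SE 0.07). Region 13 (195268201 to 195269234) gave 6.74, 8.52, 7.48, 7.70 and 6.60 CPM against 6.24, 8.95 and 13.6 CPM, with 4 GermFree mice above every ConvR mouse and a log2 difference of 0.39 (SE 0.13). The regions on each side of region 10 shared neither its density per kb nor its small difference. In GermFree mice region 9 held 5.58 and region 11 7.24 CPM per kb, against 36.5 in region 10. The GermFree mean of the wider region 9 was 54.8 CPM, as in region 10. Region 9 had a log2 difference of 0.67 (SE 0.10) and region 11 of 0.81 (SE 0.08).

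**Figure D2:**
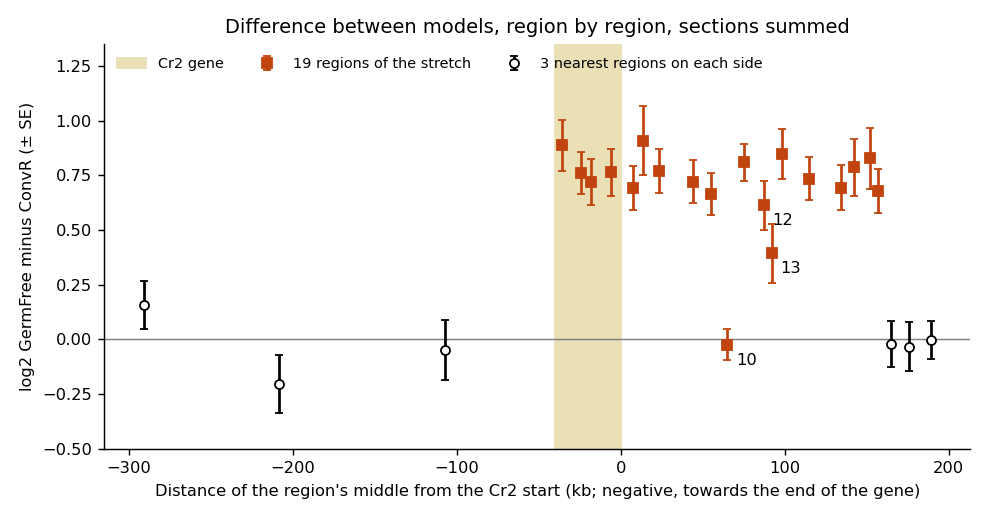
Log2 difference between GermFree (n = 7) and ConvR mice (n = 5), sections summed, with SE, against the distance of each region's middle from the start of Cr2, for the 19 regions (squares) and the 3 nearest on each side (open circles). The squares lie between 0.61 and 0.91 except regions 13 (0.39) and 10 (-0.03), and the circles between -0.21 and 0.16.

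Upstream, the nearest regions outside the stretch lacked the difference. The stretch was chosen by this difference, so its edge is described and nothing is read from it. The first region beyond region 19 begins 4.667 kb further on, with 9.63 ± 1.17 CPM for GermFree (SD, n = 7), 9.51 ± 1.79 for ConvR (SD, n = 5) and a log2 difference of -0.02 (SE 0.11). The next regions outwards had differences of -0.03 (SE 0.11) and -0.002 (SE 0.09), and these 3 are the last regions of chromosome 1. On the other side the nearest region lies 69.59 kb away, inside Cd46, which encodes a membrane regulator of complement, with a log2 difference of -0.05 (SE 0.14). Beyond it came regions at Gm16897 with -0.21 (SE 0.13) and Gm39748 with 0.16 (SE 0.11). The related complement receptor gene Cr1l, between Cr2 and Cd46, had 0 regions within 5 kb, so the point at which the difference ends on that side could not be placed.

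The same GermFree mice were highest and lowest in most regions of the stretch. GermFree mouse 7 had the highest value of the 12 mice in 18 of the 19 regions, ConvR mouse 1 being highest in region 10. GermFree mouse 3 was the lowest GermFree mouse in 17 regions, and ConvR mouse 3 the lowest ConvR mouse in 14. The highest ConvR mouse changed from region to region: mouse 1 in 6, mice 2 and 4 in 5 each, mouse 3 in 2 and mouse 5 in 1. GermFree mouse 3 and ConvR mouse 3 carry the same title code, NHSY, and stood at a GermFree to ConvR ratio of 1.39 for the summed stretch. In the other codes with a mouse of each model the ratio was 1.33 (FFRV), 1.504 (REXQ), 1.53 (ELNP) and 1.55 (FUAQ). Since the groups did not overlap in the summed stretch, any pairing gives ratios above 1. The code TK4L holds GermFree mice 5 and 7 only, and the meaning of the codes was not given in the sources used here.

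Libraries with more captured DNA in 1 region of the stretch had more in the others. Over the 48 libraries the correlation (Pearson r of log2 CPM) of a region with the summed other 18 ranged from 0.48 to 0.98 with a median of 0.91, leaving out region 10, for which it was 0.19. After subtracting the mean of each model and section the median was 0.81, so mice within a group differed together too. The lowest values after region 10 were at regions 12 (0.48, and 0.29 after subtraction) and 13 (0.56 and 0.50). The points share mice and libraries, and the total count of a library correlated with the stretch at 0.06.

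In each section separately the summed stretch was higher in GermFree mice, although with overlap outside the duodenum. In the duodenum ConvR mice 1 to 5 gave 423, 480.4, 305, 465.9 and 394 CPM and the GermFree mice 539.8 as the lowest, 741 as the median and 1059 as the highest, without overlap. In the jejunum the ConvR values were 491, 550.0, 497, 540.5 and 409 CPM and the GermFree values 547, 681 and 797 CPM, with GermFree mouse 3 just below ConvR mouse 2. The ratio of means was 1.75 in the duodenum and 1.39 in the jejunum.

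In the ileum the ConvR values were 542, 488, 341, 505 and 417 CPM and the GermFree values 485, 701 and 1028 CPM, a ratio of 1.56. In the colon they were 553, 545, 378, 598 and 509.9 CPM against 559, 848 and 1112 CPM, a ratio of 1.67. In both sections GermFree mouse 3 alone fell within the ConvR range.

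**Figure D3:**
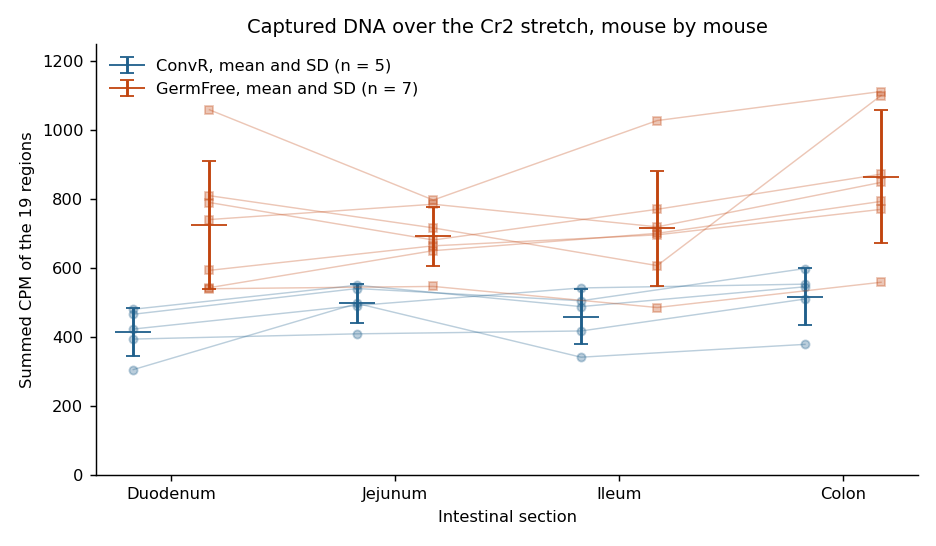
Summed CPM of the 19 regions in each mouse (points, lines joining the sections of a mouse) with the mean and SD of 5 ConvR and 7 GermFree mice, by section. GermFree means lie between 692 and 865 CPM and ConvR means between 414 and 517 CPM, with 1 GermFree mouse within the ConvR range in the jejunum, ileum and colon.

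By region, 14 members had an adjusted p under 0.05 in the duodenum (background 0.423% of regions), 12 in the jejunum (0.304%), 13 in the ileum (0.316%) and 16 in the colon (0.513%), all higher in GermFree mice, again in the contrast that chose them. Without ConvR mice 1 and 3 the counts were 11, 7, 8 and 13, for which the share over all regions is not given here. The largest log2 difference of any member was at region 6 in the duodenum, 1.405 (SE 0.26). Region 1, at the end of the gene, ranged from 0.46 (SE 0.16) in the jejunum to 1.12 (SE 0.17) in the colon, while region 4 ranged only from 0.64 (SE 0.10) to 0.92 (SE 0.15). Region 10 stayed between -0.15 (SE 0.10) and 0.13 (SE 0.11).

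Whether the difference between models depended on the section was tested directly, as an interaction that the choice of the stretch did not use. No member passed (edgeR, 0 of 19, with 1 at an unadjusted p under 0.05, and 0 by DESeq2 with 0 at an unadjusted p under 0.05). The smallest p was that of region 5 (adjusted p = 0.986, edgeR), whose log2 difference was 0.30 (SE 0.11) in the jejunum and 0.99 (SE 0.13) in the colon. With the mouse as a block, which compares the sections within each mouse, there were again 0 of 19, with 5 at an unadjusted p under 0.05 and an adjusted p of 0.338 for region 5. Over all 95876 regions 0 passed without the block, with 4746 at an unadjusted p under 0.05 by edgeR. With the block 13 passed, with 5550 at an unadjusted p under 0.05. DESeq2 called 0 of all regions, with 2262 at an unadjusted p under 0.05.

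The sections were also compared within the stretch, by contrasts that its choice did not use, although in the same libraries. The summed stretch was higher in the colon than in the duodenum in 12 of 12 mice, with a median ratio of 1.26 (1.03 to 1.46), and higher than in the ileum in 12 of 12, with a median ratio of 1.13 (1.02 to 1.81). It exceeded the jejunum in 10 of 12 mice, all 7 GermFree and 3 ConvR mice, with a median ratio of 1.14 (0.76 to 1.54). The ileum exceeded the duodenum in 7 mice, 5 of 5 ConvR and 2 of 7 GermFree mice, and the jejunum exceeded it in 9, 5 of 5 ConvR and 4 of 7 GermFree mice. The duodenum thus had the lowest summed value in every ConvR mouse but not in every GermFree mouse. The ileum exceeded the jejunum in 6 mice, 2 ConvR and 4 GermFree.

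Region by region, a joint test of the 4 sections over all 48 libraries called regions 3 (adjusted p = 0.0416) and 9 (adjusted p = 0.0309), 2 of 19 against 1.16% of all regions (edgeR). With the mouse as a block it called 11 (regions 1, 3, 4, 6, 7, 8, 9, 12, 15, 16 and 17), against 2.55% of all regions. They comprised 3 of the 4 regions in the gene, the one at its start among them. Without ConvR mice 1 and 3 the blocked count was 8. It was 4 without ConvR mouse 5 and 7 without GermFree mouse 4. DESeq2, without the block, gave an adjusted p to only 15 of the 19 members and called 0, with 8 at an unadjusted p under 0.05. Over all regions it called 671 of the 21523 given an adjusted p, and 7525 had an unadjusted p under 0.05.

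Colon against duodenum called regions 7 and 9 without the block (background 1.21%) and 9 members with it, regions 3, 4, 6, 7, 8, 9, 10, 15 and 17, all higher in the colon (background 2.44%; 5 members without ConvR mouse 5). Region 9, upstream of the gene, gave 32.7, 33.7, 13.6, 27.6 and 27.0 CPM in the duodenum of ConvR mice 1 to 5 and 45.1, 43.5, 26.3, 49.0 and 38.7 CPM in their colon. In GermFree mice its lowest, median and highest values were 39.99, 58.3 and 61.8 CPM in the duodenum and 37.2, 64.5 and 97.1 CPM in the colon. The colon was higher in 11 of 12 mice, GermFree mouse 3 being the exception, and the log2 difference was 0.46 (SE 0.08; edgeR with block, adjusted p = 2.12e-05; without block SE 0.10, adjusted p = 0.0135).

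At the start of Cr2, region 4 was higher in the colon than in the duodenum by 0.34 on the log2 scale (SE 0.08; edgeR with block, adjusted p = 0.00167), in 10 of 12 mice, a call that was not made without the block. Region 10, the member with the smallest difference between models, was also higher in the colon than in the duodenum with the block (log2 0.25, SE 0.07; edgeR adjusted p = 0.0343), in 11 of 12 mice, but not without it (adjusted p = 0.129). The largest such difference was at region 6, 0.66 (SE 0.17; edgeR with block, adjusted p = 0.00845), again only with the block (adjusted p = 0.0561 without it).

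Colon against ileum called regions 3 and 8, higher in the colon, and region 12, lower, without the block (background 2.19%). With the block 9 members passed, regions 1, 3, 4, 7, 8, 9, 15 and 16 higher and region 12 lower (background 3.6%). Region 3, inside Cr2, gave 13.1, 16.2, 7.50, 17.1 and 11.1 CPM in the ileum of ConvR mice 1 to 5 and 26.4, 17.2, 13.8, 26.8 and 19.8 CPM in their colon. In GermFree mice its lowest, median and highest values were 18.1, 24.5 and 34.9 CPM in the ileum and 18.9, 31.6 and 50.6 CPM in the colon. The colon was higher in 12 of 12 mice, with a log2 difference of 0.51 (SE 0.10; edgeR with block, adjusted p = 0.00018; without block 0.50, SE 0.12, adjusted p = 0.0128).

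Region 12 (195262140 to 195265608), with no gene, went the other way. It gave 17.2, 24.9, 28.7, 20.8 and 21.4 CPM in the ileum of ConvR mice 1 to 5 and 13.5, 18.6, 20.7, 14.8 and 15.6 CPM in their colon. In GermFree mice its lowest, median and highest values were 22.1, 27.1 and 46.6 CPM in the ileum and 16.8, 23.0 and 31.7 CPM in the colon. The colon was lower in every one of the 12 mice, and the log2 difference was -0.44 (SE 0.09; edgeR with block, adjusted p = 0.000569; without block SE 0.12, adjusted p = 0.0251). In the model comparison the same region had the lowest log2 difference of the members called, 0.61 (SE 0.11).

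**Figure D4:**
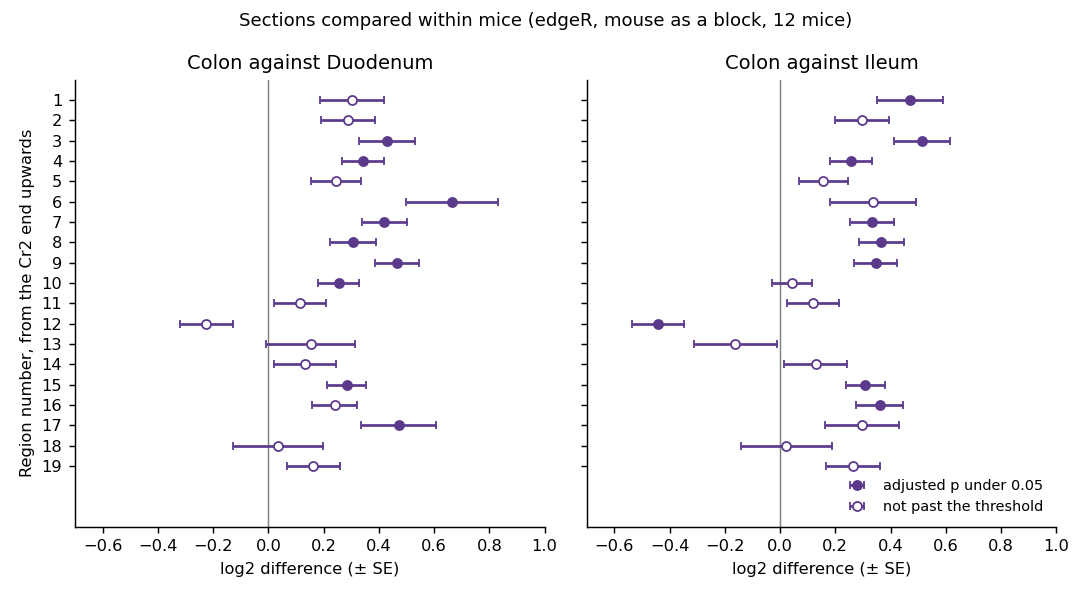
Log2 difference with SE of colon against duodenum and colon against ileum for regions 1 to 19, fitted by edgeR with the mouse as a block (12 mice); filled points have an adjusted p under 0.05. Filled points lie right of 0, higher in the colon, except region 12 against the ileum at -0.44.

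The remaining contrasts called few or no members. Colon against jejunum called 0 without the block, with 8 at an unadjusted p under 0.05 by edgeR and 4 by DESeq2, which also called 0. Over all regions the same contrast called 0 too, with 8269 of 95876 at an unadjusted p under 0.05 by edgeR and 5660 regions by DESeq2. With the block it called region 17 (log2 0.53, SE 0.14; edgeR adjusted p = 0.048; background 0.338%). Ileum against duodenum, ileum against jejunum and jejunum against duodenum each called 0 members by edgeR with and without the block and by DESeq2. Few regions passed anywhere: of all 95876, edgeR called 2, 0 and 0 without the block and 2, 1 and 15 with it. DESeq2 called 0 in each. Without the block each contrast had 1 member at an unadjusted p under 0.05 by edgeR, against 4552, 6484 and 5184 of all regions. By DESeq2 they had 1, 1 and 0 members, against 2693, 4024 and 3154 of all regions.

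Other genes of the pathway were read from lists of gene names, with regions inside a gene or within 5 kb of it, leaving out the stretch. Of 96 regions at complement genes, 4 were higher and 0 lower in GermFree mice (edgeR on sections summed), with 11 at an unadjusted p under 0.05; DESeq2 also called 4. The median log2 difference was -0.02 over the list and -0.0014 over all regions, of which 0.431% were called higher. At an unadjusted p under 0.05 edgeR found 6358 of all 95882 regions. The 4 regions lie close together on chromosome 6, between 124516219 and 124636618, and are not separate places in the genome. They are at C1ra, C1rb, C1s1 and C1s2, which encode proteases of the first complement component. The lists were chosen with earlier results of these data known, so nothing is read from the count of 4. The region at C1ra and C1s1 from 124516219 to 124525453 stood at 58.4 ± 3.35 CPM for GermFree (SD, n = 7) against 41.4 ± 3.17 for ConvR (SD, n = 5), differing by 0.49 on the log2 scale (SE 0.07). At C1rb the log2 difference was 0.48 (SE 0.08) and at C1s2 0.44 (SE 0.07). The counting of reads with several matches was not given in the sources used here. Counts at these duplicated genes are therefore uncertain.

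Between sections 2 of the 96 complement regions passed without the block, against 1.16% of all regions, 1 passed by DESeq2, and 6 passed with the block by edgeR, against 2.55%. C1rb gave a mean of 88.7 ± 21.8 CPM in the colon and 68.3 ± 19.8 in the duodenum (SD, n = 12; edgeR joint test without block, adjusted p = 0.0208). With the block, regions at C1ra and C1s1, at Cd55, which encodes a regulator of complement on membranes, and at C5ar1 and C5ar2, which encode receptors for a C5 fragment, were among those that passed. The region at C5ar1 and C5ar2 was lowest in the colon, with 3.83 ± 1.76 CPM against 6.81 ± 2.31 in the ileum and 6.001 ± 1.90 in the duodenum (SD, n = 12), while those at C1ra and C1s1 and at Cd55 had their highest means in the colon.

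Of 109 regions at genes of B cells and follicular dendritic cells, in which the receptor acts, 0 were called in either direction between models (edgeR, 5 at an unadjusted p under 0.05; DESeq2, 0 called and 0 at an unadjusted p under 0.05). Their median log2 difference was -0.01. Between sections edgeR called 0 without the block, with 13 at an unadjusted p under 0.05, whereas 1 passed by DESeq2, which called 671 of 21523 regions in all. With the block edgeR called 1 of the 109, against 2.55% of all regions. It lies at Spib, a transcription factor of B cells, with 46.3 ± 8.36 CPM in the colon and 56.4 ± 6.73 in the ileum (SD, n = 12; edgeR adjusted p = 0.0149). The neighbouring genes of chromosome 1 (51 regions outside the stretch), genes of the intestinal epithelium (64 regions) and genes of T and natural killer cells (35 regions) had 0 regions called between models and 0 between sections, by edgeR with or without the block and by DESeq2. At an unadjusted p under 0.05 edgeR found 4, 4 and 2 of them between models and 1, 7 and 5 between sections without the block. DESeq2 found 2, 2 and 2 between models and 0, 5 and 2 between sections. Over all regions edgeR found 6358 of 95882 between models and 11720 of 95876 between sections at that threshold, and DESeq2 3303 and 7525. The list counts at an unadjusted p are given beside these totals only, and nothing is read from them. Their median log2 differences between models were -0.02, 0.01 and -0.002. DNA capture at these genes does not count cells, so the part of cell numbers in the results at Cr2 was not tested.

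The genes most like the stretch over the 48 libraries all lay on the X chromosome. Among 21355 genes with regions, the median correlation (Pearson r of log2 CPM, pseudocount 1) with the stretch was -0.04. The highest, 1 gene per 500 kb, were the predicted genes Gm21061 (r = 0.96), Gm46671 (0.95), Gm14352 (0.95), Gm4725 (0.94) and Gm21432 (0.93). Gm14352 and Gm4725 start at 3403632 and 4553787, and Gm21061, Gm21432 and Gm46671 between 31210144 and 32600311. How reads with several matches were counted there was not given in the sources used here. After subtraction of the mean of each model and section these stood at 0.90, 0.88, 0.87, 0.86 and 0.83. The libraries share mice, 4 to a mouse, and the genes and the stretch share the difference between models, so the values describe a pattern only.

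Gm21061 gave 66.7, 70.6, 45.3, 80.6 and 58.0 CPM in ConvR mice 1 to 5 and a lowest, median and highest value of 73.9, 198 and 333 CPM in GermFree mice, sections summed. GermFree mouse 3 was the lowest and GermFree mouse 7 the highest GermFree mouse here as in the stretch, and mouse 3 lay within the ConvR range. The ratio of means, 3.13, was larger than the 1.58 of the stretch.

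**Figure D5:**
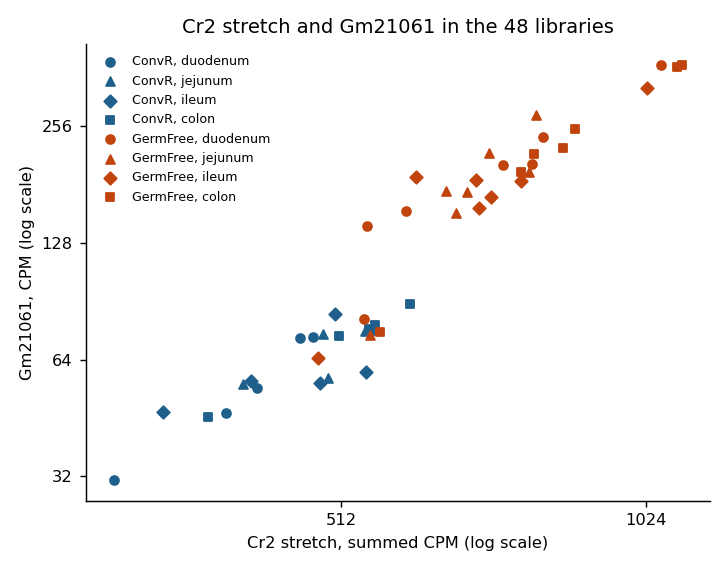
CPM at Gm21061 on the X chromosome against summed CPM of the Cr2 stretch in the 48 libraries (both log scales), coloured by model and shaped by section. Both rise together (r = 0.96), also within models, and the 4 GermFree libraries that fall among those of ConvR mice belong to GermFree mouse 3.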

How the data were processed

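DNA bound by a methyl-CpG-binding domain was sequenced by the authors in 100-bp single reads from fragments of about 250 bp, per the labels' protocols. The submitters' processing notes name Trim Galore 0.3.7, cutadapt 1.4.2, MACS2, featureCounts and build mm10. Aligner, treatment of duplicate and multiply matching reads, and which libraries entered peak calling were not given in the sources used here. The authors deposited whole-number counts per region, not normalized, and a score per region in the peak list, used only to describe regions. All region names carry the GermFree label.

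Counts of all regions were fitted with edgeR 4.0.16 in R 4.3.3 (TMM scaling, default count filter, quasi-likelihood tests, Benjamini-Hochberg adjustment over all tested regions, threshold 0.05). Models were compared in each section and on the summed counts of each mouse; sections and the interaction were tested over 48 libraries in 8 groups of model and section. The libraries of a mouse come from the same animal, so the mouse was also fitted as a block. Over regions across the genome, the deviations of 72 pairs of same-mouse libraries correlated with a median r of 0.03 (-0.05 to 0.23). That value does not describe the stretch, where GermFree mouse 7 was the highest of 12 mice in 18 of 19 regions. The filter kept all 19 members in each of these edgeR fits, while DESeq2 gave some members no adjusted p in some section contrasts. DESeq2 1.42.0 was the second tool, and Python 3.11.15, pandas 2.3.3, NumPy 2.4.6 and Matplotlib 3.10.9 made summaries and figures. The procedures were tested on simulated data.

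The members and the gene lists were chosen with earlier results of these data known. The complement, B cell and follicular dendritic cell, chromosome 1 neighbour, intestinal epithelium, and T and natural killer cell lists matched the RefSeq gene table of GRCm38.p6 except for Faim3. Named individually were the regions in Cr2, the upstream region with the highest mean, members past 0.05 in a section test, the 3 nearest regions on each side, up to 4 genes per list and the 5 genes most like the stretch (mean of at least 10 CPM, over 1 Mb away). Alternatives were other scalings, no count filter, autosomes only, DESeq2, blocks, and mice left out. Some regions counted in the complement list are not reported here by name.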

Additional observations from a re-analysis of the deposited data

How the results depend on the processing

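On summed sections the direction of every called member between models was the same in all alternatives run, and the count ran from 15 to 17 of 19. By section, DESeq2 called 8 members in the colon, 8 in the duodenum, 8 in the ileum and 5 in the jejunum, against 16, 14, 13 and 12 by edgeR. DESeq2 called fewer regions everywhere. Over all regions it called 241 of 69912, 219 of 75328, 164 of 85464 and 143 of 81883 higher in GermFree mice. The edgeR counts were 381 of 74230, 319 of 75328, 270 of 85464 and 249 of 81883. For the other alternatives by section, counts over all regions are not given here. A block by title code gave 9 in the duodenum, 7 in the ileum and 6 in the jejunum. The mouse number, taken as a replicate block, gave 7 in the ileum and 7 in the jejunum; same-numbered mice of the 2 models had a median correlation of deviations of -0.08 over 5 pairs and share only a number. Without ConvR mice 1 and 3 there were 8 in the ileum and 7 in the jejunum. Leaving out 1 mouse gave 7 to 14 in the ileum (7 without ConvR mouse 5, 8 without ConvR mouse 3) and 6 to 13 in the jejunum (lowest without ConvR mouse 5).

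The section tests depended more on the setting. The joint test called 2 members, 1 with library totals as the scaling, 0 by DESeq2, 1 without ConvR mice 1 and 3, and 11 with the mouse as a replicate block. Colon against duodenum called 2, 1 by DESeq2, 4 on autosomes only and 9 with the replicate block, colon against ileum 3, 1 by DESeq2 and 9 with the block, and colon against jejunum 0, and 1 with the block. Leaving out 1 mouse without the block gave 0 to 4 members in the joint test (0 without ConvR mouse 1, 4 or 5 or GermFree mouse 2, 4 or 6), 0 to 4 in colon against duodenum (0 without ConvR mouse 4 or 5) and 0 to 6 in colon against ileum (0 without ConvR mouse 5 or GermFree mouse 4). Leaving out 1 mouse with the block, alternatives chosen after the data were seen, gave 4 to 10 in the joint test, 5 to 10 in colon against duodenum and 6 to 10 in colon against ileum. The block changed no call of the interaction, and the cause of these changes was not tested. The median count per library was 14.5 in the member with the fewest counts and 178.5 in that with the most, so precision differed between members.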

Other observations

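Outside the X chromosome, a choice made after the values were seen, the genes most like the stretch over the 48 libraries were Gm6600 (r = 0.88), Klra9 (0.87), Raet1d (0.84), C1s1 (0.84) and Gm5885 (0.83). Klra9 belongs to the Ly49 receptor family of natural killer cells, and Raet1d encodes a ligand of the activating receptor NKG2D. After subtraction of the mean of each model and section these stood at 0.64, 0.60, 0.48, 0.51 and 0.62, below the 0.83 to 0.90 of the genes on the X chromosome. The points share mice and the difference between models.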
